A study of Mus musculus with 4 samples.

Results

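Glucose entry, glucose phosphorylation and the reverse step were described here for 9 genes: the facilitative glucose transporters Slc2a1, Slc2a2, Slc2a3 and Slc2a4, the hexokinases Hk1, Hk2 and Hk3, the hexokinase-regulating protein gene Gckr, and the glucose-6-phosphatase gene G6pc2. They were taken by gene symbol, with earlier results of these data known, and all 9 had a row among the 20377 genes of the deposited table. The samples form 1 group, rGBC2, of 4 RNA-seq libraries (replicates 1 to 4). It consists of insulin-positive cells obtained by reprogramming primary gallbladder cells of 8-week-old C57BL/6-background mice of the MIP-GFP reporter line, B6.Cg-Tg(Ins1-EGFP)1Hara/J, in which green fluorescent protein is driven by an Ins1 promoter. The cells received Pdx1, Ngn3, Mafa and PAX6 and compounds that the labels do not name, over 10 days, and GFP-positive cells were sorted. Every library therefore carries the reporter, the delivered factors and the compounds, and no untreated group was analysed here. The labels do not say whether the libraries came from separate mice or cultures, so their spread may be partly technical, and a p-value measures only that spread.

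Glucose crosses the plasma membrane down its gradient through transporters of the SLC2A (GLUT) family, and a hexokinase then traps it in the cell as glucose-6-phosphate. Rodent beta cells are known for the low-affinity transporter GLUT2 (Slc2a2) and for little of the high-affinity hexokinase Hk1. Glucose-6-phosphatases of the endoplasmic reticulum reverse the phosphorylation, and G6pc2 is the form known from islets.

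The start regions of 3 members are shown because these genes stand for different arrangements: Slc2a2 and G6pc2 as the genes known from islets, and Slc2a1 as the widely expressed transporter. Each is the 250 bases before a RefSeq start site on the plus strand of GRCm38.p6, written 5′ to 3′ and ending at the base before the start. Slc2a2 lies at chr3:28697653-28697902, G6pc2 at chr2:69219699-69219948 and Slc2a1 at chr4:119108495-119108744. Capitals mark matches, on either strand, to 4 searched motifs: the E-box CANNTG (the site type of basic helix-loop-helix factors such as Ngn3), the homeodomain core TAATTA, the Maf half-site TGCTGA and the GC box GGGCGG.
Slc2a2: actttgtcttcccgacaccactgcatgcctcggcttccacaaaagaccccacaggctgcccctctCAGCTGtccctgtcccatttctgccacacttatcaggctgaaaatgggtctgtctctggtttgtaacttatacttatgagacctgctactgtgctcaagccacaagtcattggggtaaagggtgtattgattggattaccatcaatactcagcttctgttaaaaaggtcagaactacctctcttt
G6pc2: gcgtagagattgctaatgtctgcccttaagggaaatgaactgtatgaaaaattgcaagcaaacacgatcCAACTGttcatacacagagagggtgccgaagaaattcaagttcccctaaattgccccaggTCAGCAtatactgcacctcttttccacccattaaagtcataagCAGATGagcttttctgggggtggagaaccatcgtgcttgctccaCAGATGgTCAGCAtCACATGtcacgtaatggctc
Slc2a1: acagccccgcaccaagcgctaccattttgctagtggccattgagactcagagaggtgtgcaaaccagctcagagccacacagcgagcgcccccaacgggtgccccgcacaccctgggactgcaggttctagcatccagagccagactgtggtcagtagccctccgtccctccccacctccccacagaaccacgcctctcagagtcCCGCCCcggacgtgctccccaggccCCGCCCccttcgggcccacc

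The G6pc2 region held 4 E-boxes (at -181, -78, -34 and -20 from the start) and 2 Maf half-sites (at -121 and -27), and no base was shared between matches. In the Slc2a2 region 1 E-box, CAGCTG at -185, was the only match. The Slc2a1 region held no E-box but 2 GC boxes, at -45 and -20. Among 32851 RefSeq start regions of the same length, 66.2% held an E-box and 3.84% held 4 or more, 16.1% held the Maf half-site, 32.7% the GC box and 4.84% the homeodomain core, which none of these 3 regions held. The GC content was 47.2% for Slc2a2, 46.0% for G6pc2 and 66.4% for Slc2a1, against a median of 52.4% over all start regions. A match describes letters and not binding. For G6pc2 RefSeq lists another start region, at chr2:69210823-69211072, which held 1 E-box and none of the other motifs. The one shown was taken because it lies 22 bases from the start of the tabulated transcript, against 8898 bases for the other. In all, 7 of the 9 members matched the RefSeq table of start regions.

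Values are RPKM, read counts scaled to transcript length and to the reads mapped in the library, so levels of different genes are compared per transcript length. From the steps between only 32, 26, 14 and 17 low values, depths of 24.2, 22.2, 24.6 and 32.9 M reads were estimated for replicates 1 to 4. Beta-cell hormone genes (Ins1, Ins2, Iapp) were abundant in every library, and biliary genes such as Krt7 (635 ± 186 RPKM, SD, n = 4) and Epcam (201 ± 33.7 RPKM) were also present. Sox9 was the lowest of the 5 biliary markers listed, at 1.20, 0.92, 0.64 and 0.61 RPKM in replicates 1 to 4. Replicates 3 and 4 resembled each other most, with a median absolute difference of 0.0948 on the log2(RPKM + 1) scale against 0.283 to 0.429 for the other 5 pairs. Their estimated reads differed by more than counting error alone (chi-square of 13.5 per gene), so they were kept as separate libraries. That excess does not show that they came from separate mice or cultures. Replicates 1 and 2 held reads of Y-linked genes (Eif2s3y at 48.5 and 44.7 RPKM) and replicates 3 and 4 listed them at 0. Gapdh, a gene every cell uses, was at 0.20, 0, 0.04 and 0.03 RPKM, and 83.7% of its 36-base words also occur in transcripts of other genes. For the members that share was 0% to 2.17% (Slc2a1 had the highest, shared with Gm12868).

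The level of each gene was tested against 1 RPKM with limma, across all 16919 genes not at 0 in every library and with Benjamini-Hochberg adjustment at 0.05. Of the 9 members, 4 lay above 1 RPKM (Slc2a2, G6pc2, Hk1 and Slc2a1), where 65.0% of all genes tested did. Below it lay 3 members (Gckr, Slc2a3 and Hk3), where 26.1% of all genes did, and Hk2 and Slc2a4 passed in neither direction. The median of the members' means was 1.45 RPKM, against 7.38 RPKM over all genes tested. The members' means ran from 0.015 RPKM for Hk3 to 120 RPKM for Slc2a2.

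**Figure D1:**
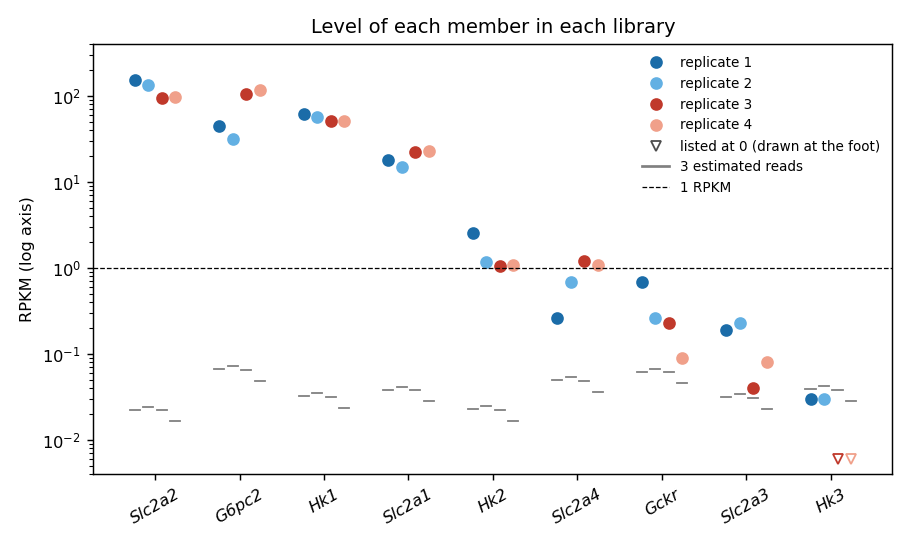
RPKM of the 9 members in each of the 4 libraries on a log axis, ordered by mean. Grey ticks mark the RPKM of 3 estimated reads on that transcript, triangles mark values listed at 0, and the dashed line is 1 RPKM. Slc2a2, G6pc2, Hk1 and Slc2a1 lie at 15.0 RPKM or more in every library, while Hk3 lies under 3 reads in all 4.

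**Figure D2:**
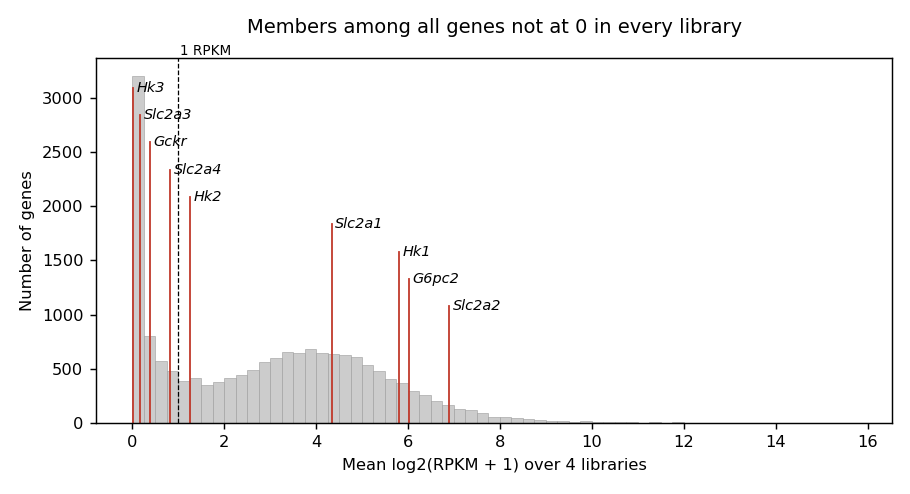
Distribution of the mean log2(RPKM + 1) over 4 libraries for the 16919 genes not at 0 in every library (grey, number of genes per bin of 0.25), with the 9 members marked by red lines whose heights serve only to separate the labels. Slc2a2 stands in the upper tail, Hk3 and Slc2a3 stand in the peak of genes near 0, and Gckr stands beside that peak.

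Among the 4 transporters, Slc2a2, the low-affinity GLUT2, was the most abundant. It is listed on chromosome 3 from 28596824 to 28627282 on the plus strand in mm9. It was measured at 154, 135, 94.9 and 96.7 RPKM in replicates 1 to 4. Replicates 1 and 2 were higher than replicates 3 and 4, without overlap. The mean was 120 ± 29.0 RPKM (SD, n = 4), above 1 RPKM by 5.89 ± 0.15 (SE) on the log2(RPKM + 1) scale (limma, adjusted p = 4.14e-07). In replicate 1 it ranked at place 444 of the 20377 genes and in replicate 4 at place 1041.

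Slc2a1, the high-affinity GLUT1 found in most proliferating and barrier-forming cells, is listed on chromosome 4 from 118781349 to 118809934. It stood at 17.8, 15.0, 22.4 and 22.8 RPKM in replicates 1 to 4, with a mean of 19.5 ± 3.77 RPKM (SD, n = 4; limma, adjusted p = 2.59e-06 for a level above 1 RPKM). Here replicates 3 and 4 were the higher ones, the reverse of Slc2a2. Slc2a2 exceeded Slc2a1 in 4 of 4 libraries, by 8.64-fold, 8.99-fold, 4.24-fold and 4.25-fold in replicates 1 to 4. The difference was 2.55 ± 0.59 on the log2(RPKM + 1) scale (SD, n = 4; exact two-sided sign-flip permutation p = 0.125, adjusted over 5 planned differences p = 0.156). With 4 libraries 0.125 is the smallest p this test can give, so none of the 5 differences can pass 0.05.

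Slc2a3, the high-affinity GLUT3 of neurons, is listed on chromosome 6 from 122677826 to 122692763. It was at 0.19, 0.23, 0.04 and 0.08 RPKM in replicates 1 to 4, which placed it below 1 RPKM (limma, adjusted p = 1.27e-05). Each value corresponds to at least 3 estimated reads in every library, so the transcript was detected at a very low level. Of 6 neuronal markers in the same libraries 4 lay above 1 RPKM, where 65.0% of all genes tested did. Tubb3 was the highest of them at 139 ± 65.6 RPKM, while Gap43 was at 0.075 ± 0.0332 RPKM. Slc2a1 exceeded Slc2a3 in 4 of 4 libraries, with a mean log2(RPKM + 1) difference of 4.16 ± 0.39 (SD, n = 4; exact sign-flip permutation p = 0.125, adjusted p = 0.156).

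Slc2a4, the insulin-responsive GLUT4 of muscle and fat, is listed on chromosome 11 from 69755787 to 69761692. Its RPKM was 0.26, 0.68, 1.20 and 1.09 in replicates 1 to 4. Replicates 1 and 2 against replicates 3 and 4 did not overlap and lay on opposite sides of 1 RPKM, and the gene passed in neither direction (limma, adjusted p = 0.285). Of 7 fat and muscle markers 1 lay above 1 RPKM, where 65.0% of all genes tested did. This was Acta1, at 18.2, 3.44, 20.3 and 22.2 RPKM in replicates 1 to 4. The muscle markers did not share 1 order over the libraries. Ckm was at 2.13, 1.11, 0.55 and 0.70 RPKM and Des at 0.24, 0.50, 0.23 and 0.14 RPKM. Both had a lower mean in replicates 3 and 4 than in replicates 1 and 2, the reverse of Acta1. Adipoq and Plin1 of fat cells were at 0.04 RPKM or less in every library. The myosin gene Myh1 was listed at 0 in all 4. The summed level of these markers was 5.14 to 23.1 RPKM, and their part in the Slc2a4 values was not tested.

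Slc2a2 took 84.8 ± 5.37% (SD, n = 4) of the summed RPKM of the 4 transporters, with 89.4%, 89.5%, 80.1% and 80.2% in replicates 1 to 4. Slc2a1 took 14.5 ± 5.05%. The remainder, Slc2a3 and Slc2a4 together, was small in every library.

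Of the hexokinases, Hk1 accounted for nearly all transcripts. Hk1, the high-affinity enzyme that binds mitochondria and is kept low in mature beta cells, is listed on chromosome 10 from 61731602 to 61842656 on the minus strand. It stood at 62.0, 57.2, 51.2 and 50.9 RPKM in replicates 1 to 4, a narrow range in which the highest library was 1.22-fold the lowest. Its mean was 55.3 ± 5.29 RPKM (SD, n = 4), above 1 RPKM (limma, adjusted p = 2.29e-07). RefSeq gives Hk1 a second start inside the gene, and gene-level values do not separate the transcripts of the 2 starts.

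Hk2, the inducible hexokinase of muscle, fat and many tumours, is listed on chromosome 6 from 82675020 to 82724448. It was at 2.53 RPKM in replicate 1 and at 1.17, 1.04 and 1.07 RPKM in replicates 2 to 4. Replicate 1 stood apart from the other 3. The mean of 1.45 ± 0.72 RPKM (SD, n = 4) was not separable from 1 RPKM (limma, adjusted p = 0.195), although Hk2 was above 1 RPKM in every library. Hk1 exceeded Hk2 in 4 of 4 libraries, by 24.5-fold in replicate 1 and by 47.6-fold to 49.2-fold in replicates 2 to 4. On the log2(RPKM + 1) scale the difference was 4.56 ± 0.27 (SD, n = 4; exact sign-flip permutation p = 0.125, adjusted p = 0.156).

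Hk3, the hexokinase of white blood cells, is listed on chromosome 13 from 55107346 to 55122695, and its span overlaps that of Unc5a on the opposite strand. Its RPKM was 0.03, 0.03, 0 and 0 in replicates 1 to 4 and placed it below 1 RPKM (limma, adjusted p = 2.39e-07). Each value lies under 3 estimated reads in each library (0.0283 to 0.0419 RPKM on this transcript, counting error only), so Hk3 was not detectable above that floor. Leukocyte markers were mixed: 4 of 8 lay above 1 RPKM (Cd68, C1qa, Csf1r and Cd14), where 65.0% of all genes tested did. The summed level of the list was 159 to 194 RPKM. Most of that sum was Cd68, at 167, 129, 126 and 130 RPKM in replicates 1 to 4. Ptprc, the pan-leukocyte antigen, was at 0.01 RPKM or listed at 0. The share of Hk1 in the summed RPKM of the 3 hexokinases was 97.5 ± 0.97% (SD, n = 4), lowest in replicate 1 at 96.0%.

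Slc2a2 exceeded Hk1 in 4 of 4 libraries, by 2.48-fold, 2.35-fold, 1.85-fold and 1.90-fold in replicates 1 to 4. The difference was 1.08 ± 0.21 on the log2(RPKM + 1) scale (SD, n = 4; exact sign-flip permutation p = 0.125, adjusted p = 0.156).

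Gckr encodes the protein that binds and restrains the low-affinity hexokinase of liver. It is listed on chromosome 5 from 31599953 to 31629675. It was at 0.69, 0.26, 0.23 and 0.09 RPKM in replicates 1 to 4, below 1 RPKM (limma, adjusted p = 0.00185). Replicate 1 was highest and replicate 4 lowest, a wide relative spread at a level of 5.97 to 33.6 estimated reads. Of 8 hepatocyte markers, Alb at 2.63, 23.0, 30.3 and 35.2 RPKM and Ttr at 15.2 to 20.3 RPKM lay above 1 RPKM. Below it lay 4 markers. Of all genes tested 65.0% lay above and 26.1% below. Fgb and Serpina1a were listed at 0 in all 4 libraries. The markers did not share 1 order over the libraries: in replicate 1, where Gckr was highest, Alb was lowest and Apoa1 was highest (0.48, 0.05, 0.09 and 0.14 RPKM in replicates 1 to 4). Their part in the Gckr values was not tested.

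G6pc2, the glucose-6-phosphatase catalytic subunit known from islets, was the member with the widest spread among those above 1 RPKM. It is listed on chromosome 2 from 69058054 to 69066045 on the plus strand. Its RPKM was 44.0, 31.1, 105 and 116 in replicates 1 to 4. Replicates 3 and 4 lay above replicates 1 and 2 without overlap, and the mean of replicates 3 and 4 was 2.94-fold that of replicates 1 and 2. Over all 4 libraries the mean was 73.9 ± 42.6 RPKM (SD, n = 4), above 1 RPKM (limma, adjusted p = 2.92e-05). G6pc2 was below Slc2a2 in replicates 1 and 2, at 0.286 and 0.231 of its level, and above it in replicates 3 and 4, at 1.10 and 1.20 times its level.

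The other glucose-6-phosphatases differed widely in level. G6pc3, the form found in most tissues, was at 37.8, 33.4, 57.9 and 56.4 RPKM in replicates 1 to 4. G6pc, the form of liver and kidney that releases glucose into blood, was at 0.06, 0.02, 0 and 0.01 RPKM. G6pc2 exceeded G6pc3 in 3 of 4 libraries, with 0.933 of its level in replicate 2 and 1.16, 1.81 and 2.05 times its level in replicates 1, 3 and 4. The difference of 0.50 ± 0.53 on the log2(RPKM + 1) scale was smaller than its SD (n = 4; exact sign-flip permutation p = 0.25, adjusted p = 0.25). It was 0.06 in replicates 1 and 2 alone, 0.94 in replicates 3 and 4 alone and 0.32 without replicate 4. G6pc2 took 48.2% to 67.3% of the summed RPKM of the 3 phosphatases.

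In order of mean level the members ran Slc2a2, G6pc2, Hk1, Slc2a1, Hk2, Slc2a4, Gckr, Slc2a3 and Hk3. The ranges over libraries were apart for Hk1 and Slc2a1, for Slc2a1 and Hk2, and for Slc2a3 and Hk3. They overlapped for the other 5 neighbouring pairs, so the order within each of these pairs is not settled by these libraries. Of these, Gckr was nevertheless above Slc2a3 in 4 of 4. Some members that are not neighbours were apart. Slc2a2 (lowest 94.9 RPKM) lay above Hk1 (highest 62.0 RPKM) in every library. Hk2 (lowest 1.04 RPKM) lay above Gckr (highest 0.69 RPKM), and Slc2a4 (lowest 0.26 RPKM) lay narrowly above Slc2a3 (highest 0.23 RPKM).

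**Figure D3:**
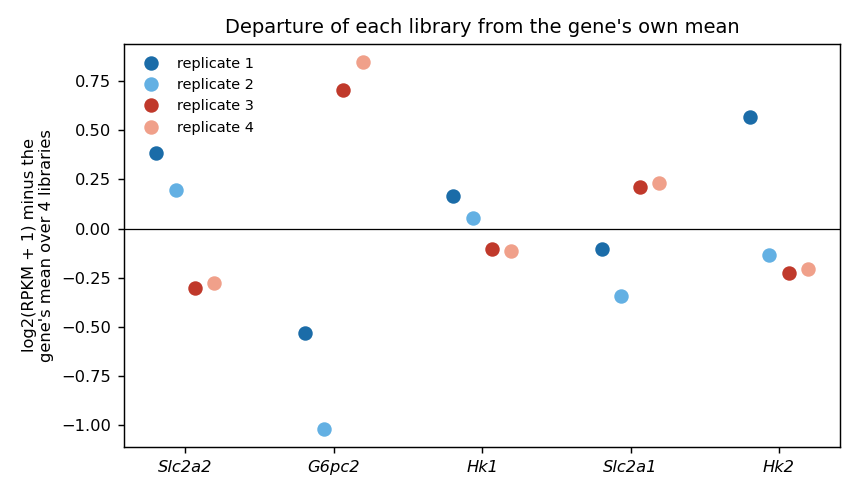
Departure of each library from the gene's own 4-library mean on the log2(RPKM + 1) scale, for the 5 members above 1 RPKM in every library. Replicates 1 and 2 (blue) lie above replicates 3 and 4 (red) for Slc2a2 and Hk1 and below them for G6pc2 and Slc2a1. For Hk2 replicate 1 stands apart.

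The members thus did not vary together between libraries. As the difference between the mean log2(RPKM + 1) of replicates 3 and 4 and that of replicates 1 and 2, G6pc2 had 1.55, Slc2a1 0.45, Hk1 -0.22, Hk2 -0.43 and Slc2a2 -0.58. The same difference correlated with GC content across 11842 genes (Spearman 0.571) and with transcript length (Spearman -0.251). These are correlations across genes, which are not independent replicates. Slc2a2 has a transcript of 5569 bases with 41.7% GC, and genes of like GC content had a running median of -0.82, so Slc2a2 lay 0.24 above that median. The spread of genes around that median was not measured and transcript length was not adjusted for, so no conclusion is drawn from this offset. For G6pc2, with 44.9% GC, the running median was -0.48, on the other side of 0 from its own value, and it lay 2.03 above it. Slc2a1 lay 0.24 above its running median, Hk1 0.43 below (-0.43) and Hk2 0.50 below (-0.50). With 2 libraries on each side an exact permutation test cannot give a p under 0.333, and no test was made. The presence of Y-linked reads, the GC trend and the pairing of libraries cannot be told apart, and their part in the differences was not tested.

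**Figure D4:**
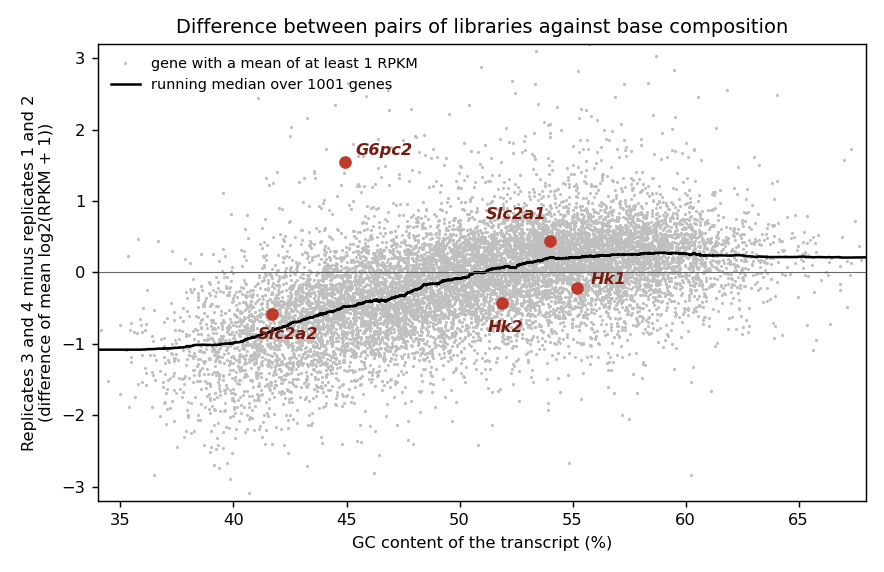
Difference of mean log2(RPKM + 1) between replicates 3 and 4 and replicates 1 and 2 against transcript GC content in percent, for genes with a mean of at least 1 RPKM (grey; points beyond the vertical axis are not drawn), with the running median of genes ordered by GC content (line) and the 5 members above 1 RPKM in every library (red). G6pc2 lies 2.03 above the line, and Slc2a2 lies 0.24 above it while below 0.

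Insulin transcripts followed G6pc2 only in part. Ins1 was at 107, 222, 481 and 523 RPKM and, like G6pc2, higher in replicates 3 and 4 than in replicates 1 and 2. Ins2 was at 1091 RPKM in replicate 1 and at 3704 to 4240 RPKM in the others, so replicate 2 was high for Ins2 and lowest for G6pc2. In these bulk libraries, fewer cells of a type and less RNA per cell cannot be told apart.

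Genes with the most similar profile were sought among 11967 genes with a mean of at least 1 RPKM, by the root mean square difference of log2(RPKM + 1) after centring each gene on its own mean over the 4 libraries. For G6pc2 the nearest were Pnmal2 (0.0514), Nkain1 (0.0635) and Apba1 (0.0792), and 7 genes in all lay within 0.1. For Slc2a2 they were 6330577E15Rik (0.00626), Cdkl3 (0.0114) and 4933439F18Rik (0.0148), with 500 genes within 0.1. Slc2a1 was nearest to Tom1l2, Sigirr and Ecsit, with 828 genes within 0.1, Hk1 to Ccdc157, Bcl7a and Il17rc, with 810, and Hk2 to Epas1, Idua and Ccnf, with 201. These counts depend on how far a member departs from its own mean, since genes that vary little all lie close together. That departure (root mean square, log2(RPKM + 1)) was 0.794 for G6pc2, 0.328 for Hk2, 0.298 for Slc2a2, 0.238 for Slc2a1 and 0.116 for Hk1.

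Of 52 related genes that carry sugars, phosphorylate them, use glucose-6-phosphate or regulate these steps, 39 lay above 1 RPKM and 11 below it (limma, adjusted over all 16919 genes), against 65.0% and 26.1% of all genes tested, and 2, Slc5a1 and Pfkfb1, passed in neither direction. Their median was 23.4 RPKM, against 7.38 RPKM over all genes tested.

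Among the 8 other SLC2A transporters 4 lay above and 4 below 1 RPKM, against 65.0% and 26.1% of all genes tested. Slc2a5, the fructose transporter GLUT5, was the highest gene of the whole family at 251, 158, 350 and 349 RPKM in replicates 1 to 4. It exceeded Slc2a2 in 4 of 4 libraries, by 1.63-fold, 1.18-fold, 3.68-fold and 3.61-fold. Of the summed RPKM of the 12 SLC2A genes, Slc2a5 took 45.4% to 64.8% and Slc2a2 17.6% to 38.5%. This ratio was not among the planned differences and is given without a test. Slc2a8, an intracellular hexose transporter, stood at 54.3 ± 14.3 RPKM and exceeded Slc2a1 in 4 of 4 libraries, by 2.21-fold to 3.35-fold. Slc2a9, a urate transporter, was at 4.85 ± 0.52 RPKM. The lowest were Slc2a7, Slc2a10 and the inositol transporter Slc2a13, the last at 0.01 RPKM in every library.

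Of 8 sodium-coupled and other sugar carriers 3 lay above 1 RPKM (Slc50a1, Slc5a10 and Slc5a2), where 65.0% of all genes tested did. Slc50a1, a sugar carrier of the SWEET family, was at 61.8 ± 3.78 RPKM (SD, n = 4). Slc5a10 was at 16.5 ± 7.17 RPKM and Slc5a2, the sodium-glucose carrier SGLT2, at 9.64 ± 2.14 RPKM. Slc5a1, the intestinal carrier SGLT1, was at 1.34 ± 0.21 RPKM. Slc5a4a, Slc5a4b and Slc5a11 were at 0.05 RPKM or less in every library.

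Of 8 genes of other sugar kinases and amino sugar enzymes 7 lay above 1 RPKM, where 65.0% of all genes tested did. Galk2, a kinase of N-acetylgalactosamine, was highest at 112 ± 23.3 RPKM and Nagk, the N-acetylglucosamine kinase, followed at 78.2 ± 10.5 RPKM (SD, n = 4). Khk, which phosphorylates fructose, stood at 24.1 ± 2.04 RPKM. Gnpda1, at 41.7 ± 7.20 RPKM, is not a kinase but a deaminase of glucosamine-6-phosphate. Hkdc1, a hexokinase relative, was the 1 gene below 1 RPKM, at 0.80, 0.37, 0.49 and 0.51 RPKM (limma, adjusted p = 0.0036), and Hk1 exceeded it by 77.4-fold to 155-fold.

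In the glucose-6-phosphatase system 4 of 6 genes lay above 1 RPKM besides the member G6pc2, against 65.0% of all genes tested. Slc37a4, which carries glucose-6-phosphate into the endoplasmic reticulum, had 8.32, 7.86, 14.3 and 15.4 RPKM in replicates 1 to 4, again higher in the last pair. Slc37a3 and Slc37a1, its relatives, were higher at 102 ± 15.8 and 49.2 ± 5.85 RPKM (SD, n = 4). Slc37a2 was at 0.08 to 0.13 RPKM.

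For the next steps 9 of 10 genes lay above 1 RPKM and none below, against 65.0% and 26.1% of all genes tested. H6pd, which oxidises glucose-6-phosphate inside the endoplasmic reticulum, stood at 107 ± 14.9 RPKM, Gpi1, the isomerase of glycolysis, at 103 ± 25.9 RPKM and Pfkfb3, which makes the activator of phosphofructokinase, at 78.6 ± 13.6 RPKM (SD, n = 4). All 12 regulators lay above 1 RPKM, against 65.0% of all genes tested. They were led by Vdac1, the mitochondrial outer membrane channel to which hexokinases bind, at 134 ± 14.1 RPKM, and Txnip, an inhibitor of glucose uptake, at 84.8 ± 7.99 RPKM, with Mlxipl, a glucose-responsive transcription factor, lowest at 2.76 ± 1.10 RPKM.

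**Figure D5:**
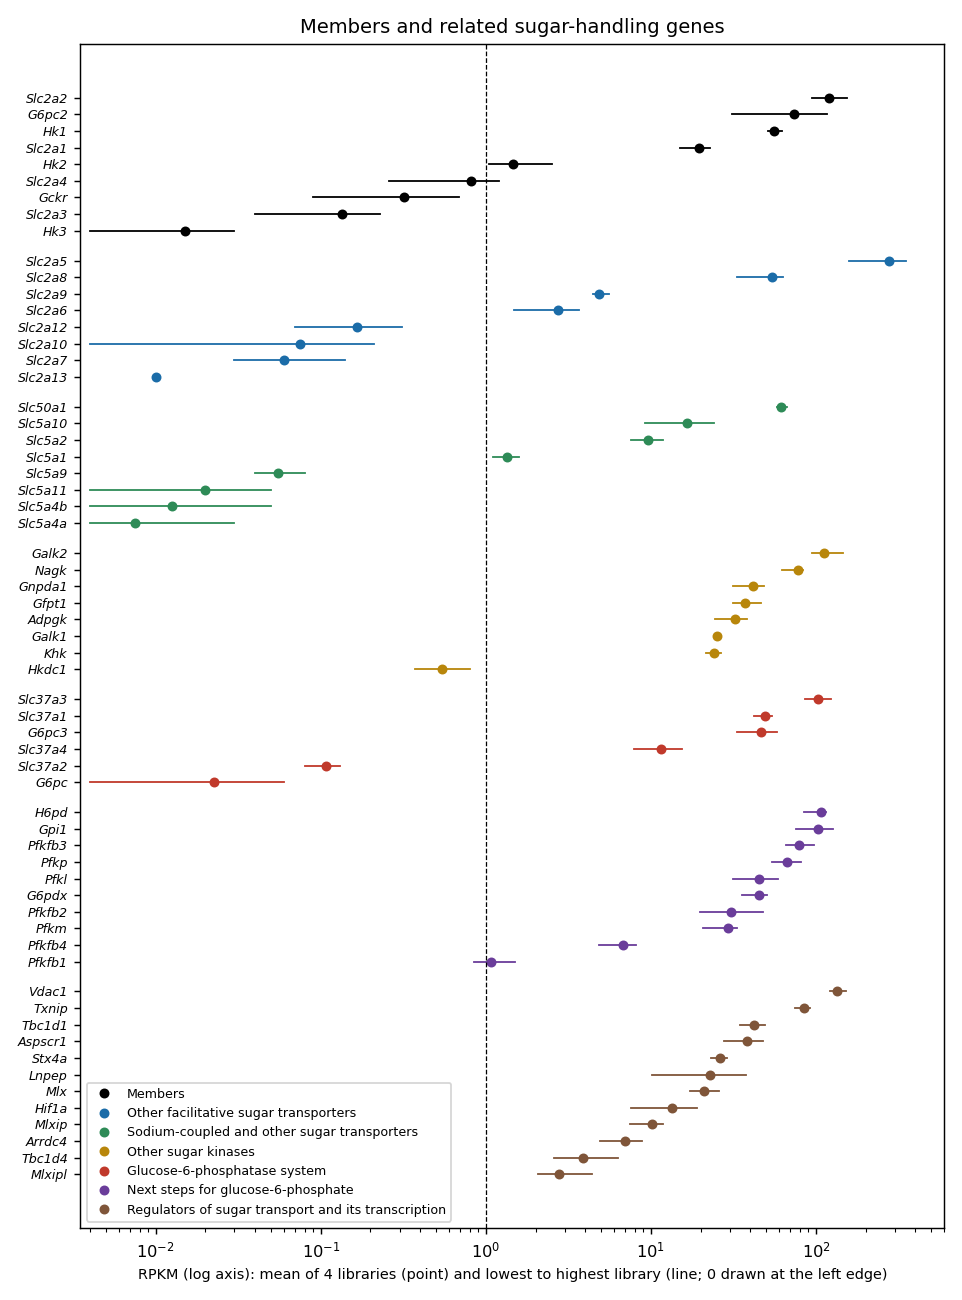
RPKM on a log axis for the 9 members (black) and 52 related genes in 6 lists (colours), as the mean of 4 libraries (point) and the lowest to highest library (line). Slc2a5 lies above Slc2a2, and the 12 regulators all lie to the right of the dashed line at 1 RPKM.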

How the data were processed

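RNA from sorted cells was measured in 4 libraries of 1 group. The authors deposited RPKM values rounded to 2 decimals, 1 row per gene symbol with 1 RefSeq transcript. The submitters' processing notes name Bowtie, CASAVA 1.8.2 and build mm9, with no role for each. How reads were counted, by strand or where they match several genes, is not given in the sources used here. Member coordinates are those of the deposited table, and 6 per-sample columns that match no sample were not used. Transcript lengths, GC content and shared words came from GENCODE vM21 by RefSeq identifier (98.1% of genes). Start regions came from RefSeq on GRCm38.p6 and were matched by symbol. Depth was estimated from the low values above 0 (32, 26, 14 and 17 in replicates 1 to 4) among 981 olfactory receptor genes spanning under 1100 bases. Within a fixed search range, the lowest run of depths that left all of them within rounding of whole reads was found. The best-fitting depth of that run was taken, and floors and estimated reads depend on it. Floors are 3 reads and cover counting error only.

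Levels on the log2(RPKM + 1) scale, which compresses low values, were tested against 1 RPKM (limma 3.58.1, R 4.3.3, moderated with a mean-variance trend, two-sided, threshold 0.05), after the procedure was tested on simulated data. The 5 planned differences within libraries were tested by exact sign-flip permutation, two-sided. Means, SDs, ratios and shares are of RPKM. All members were named. Of related genes, the 3 highest and 3 lowest of each list were eligible, along with those in a planned difference, and only Slc5a1 was named outside this rule, after its values were seen. The motifs, the 3 start regions shown and the ratios given without a test were chosen after the data were seen, and 1 motif (the GC box) replaced another after a first search. The members and lists were chosen with earlier results of these data known. Alternatives were another pseudocount (0.1), filters, scalings, no trend and leaving out libraries.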

Additional observations from a re-analysis of the deposited data

Results flagged for a closer look

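Of 39 results examined over the 4 libraries, 7 had 1 library whose gap to its nearest neighbour, as a share of the whole range, passed Dixon's critical value for 4 samples. Chance alone gives this in about 1 of 20 groups, and several of the 7 share genes. In replicate 1, Hk2 was highest at 2.53 RPKM, which also set the lowest difference of Hk1 from Hk2 (4.16 on the log2(RPKM + 1) scale), the lowest share of Hk1 among the 3 hexokinases (96.0%) and the highest share of Hk2 (3.92%). In replicate 2, Slc2a8 was lowest at 33.0 RPKM, Nagk at 62.5 RPKM and H6pd at 84.3 RPKM.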

How the results depend on the processing

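The count of members above 1 RPKM was 4 under every alternative run, and the count below it was 2 to 4 (3 as reported): pseudocount 0.1, 2 filters, no trend, 2 scalings, each library left out, replicates 1 and 2 alone, replicates 3 and 4 alone, and replicates 3 and 4 averaged as 1 library (the last 3 chosen after seeing the data). With only genes of at least 0.1 RPKM on average tested, 3 related genes in place of 11 lay below 1 RPKM, because fewer genes were tested. Slc2a4 changed side with the libraries, with -0.46 against 1 RPKM on the log2(RPKM + 1) scale in replicates 1 and 2 alone (limma, adjusted p = 0.0364) and 0.10 in replicates 3 and 4 alone (limma, adjusted p = 0.145), and the cause was not tested. The difference of Slc2a2 between replicates 3 and 4 and replicates 1 and 2 turned from -0.58 to 0.24 once the running median over genes of like GC content was taken off. All 5 planned differences kept their direction under every alternative run, but the sizes of 2 moved by over 1.5 times. G6pc2 minus G6pc3 went from 0.50 to 0.32 without replicate 4 (0.32 to 0.69 with each library left out), 0.06 in replicates 1 and 2 alone and 0.94 in replicates 3 and 4 alone. Slc2a1 minus Slc2a3 went from 4.16 to 6.44 with a pseudocount of 0.1. No paired analysis was possible because there is only 1 group, so no replicate numbers are shared between groups (the planned differences pair genes within a library, not samples). Depth limits Hk3, whose values lie under 3 estimated reads.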
